A study of Bos taurus with 12 samples.

Results

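The loci described here are the scattered distal intergenic loci on the autosomes of the bull, in DNA from sperm. They are the CpG sites and 500 bp windows that the authors' annotation places more than 10 kb from the closest exon, coding sequence, untranslated region or intron. By the rule, a member lies on chromosomes 1 to 29, is annotated as distal intergenic, and has a gene feature rather than a CpG island as its closest feature. Loci in 6 blocks of many calls on chromosomes 1, 14, 18, 21 and 29 were left out, which hold 967 further distal sites (6.10% called) and 745 further distal tiles (2.55% called). The members are 3473 of the 17730 CpG sites and 637 of the 7290 windows that the tables list. The windows are called tiles, start every 100 bp and therefore overlap.

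The study profiled 12 samples of bull sperm DNA, 6 labelled low daughter fertility and 6 labelled high daughter fertility, in search of methylation marks that go with how fertile the daughters of a bull are. The labels give no age, strain or batch for either group, and do not say that each sample is another bull. Enzymatic methylation sequencing (EM-seq), which converts unmethylated cytosines with enzymes in place of bisulfite, was used for all samples. Each locus has one value, the authors' methylation difference between the groups in percentage points, with their p-value and q-value. Levels per sample were not analysed here. The depth of a value is therefore unknown, and its spread over the samples cannot be given. The sign of a difference is given as listed, because the sources used here do not say which group was subtracted from which.

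Mammalian sperm DNA is heavily methylated outside CpG islands, and most of the genome far from genes shares that state. Distal intergenic DNA holds repeats, of which many but not all are methylated in sperm, and enhancers, which can act on a gene over long distances. The closest gene of a distal locus is therefore a landmark on the map and need not be a gene that the locus acts on.

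A locus counts as called when the authors' q is below 0.05 and the difference is at least 10 points in either direction. By that rule 5.94% of all listed sites and 2.78% of all listed tiles were called. The q-value alone passed for 8.11% of listed sites and 71.8% of listed tiles. How the authors adjusted their p-values is not given in the sources used here, and their q lay below their p for 533 of the distal sites (15.3%) and 395 of the distal tiles (62.0%).

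Among the distal members, 138 sites were called, which is 3.97% of them (exact 95% binomial interval 3.35% to 4.68%). This interval and those below cover counting error only, and neighbouring loci are not independent. The called distal sites leaned to negative differences, with 91 negative and 47 positive, a negative share of 65.9% (57.4% to 73.8%). Of all listed sites, 4.78% were called with a negative and 1.16% with a positive sign. On the autosomes outside the left-out blocks, the other sites were called at 3.30% (245 of 7414), with 155 negative and 90 positive. The difference between 3.97% and 3.30% was not tested. By class of position, with a gene feature as the closest, the called share was 4.67% of 728 promoter sites, 3.02% of 2911 sites within genes and 3.41% of 792 sites just downstream of genes. Distal sites whose closest feature was a CpG island stood at 3.60% of 1919.

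Most distal sites were listed with a small difference. The median over the 3473 sites was -0.86 points, with quartiles of -3.96 and 2.08 points and a range from -48.0 to 49.6 points. Negative differences made up 55.8% of these sites. In those other autosomal sites the median was -0.30 points and 52.7% were negative. A q below 0.05 alone was reached by 181 distal sites (5.21%). Of the 138 called distal sites, 75 differed by at least 20 points, 50 of them negative, and 22 by at least 30 points, 14 of them negative.

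Distance from the closest feature ran from 10002 to 1762550 bp for the distal sites, with a median of 60313 bp. The called ones ran from 10004 to 729255 bp. In the 6 distance bands the called share of sites moved between 3.31% and 4.76% with no steady order. Under 20 kb, 28 of 662 sites were called (4.23%), and from 20 to 50 kb 30 of 905 (3.31%). From 50 to 100 kb the count was 25 of 586 (4.27%), and from 100 to 200 kb it was 20 of 557 (3.59%). From 200 to 500 kb, 30 of 630 sites were called (4.76%), of which 24 were negative and 6 positive. At 500 kb or more, 5 of 133 were called (3.76%), 2 negative and 3 positive. The intervals of the 6 bands overlap one another.

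Split at 50 kb, 58 of 1567 nearer sites (3.70%) and 80 of 1906 farther sites (4.197%) were called. The difference, nearer minus farther, was -0.50 percentage points with a 95% Newcombe interval of -1.79 to 0.83, which spans 0. Across the 3473 sites, which are not independent, Spearman's rho of distance was -0.014 with the absolute and -0.0044 with the signed difference. The band medians lay between -1.09 and -0.56 points. At the 10 kb edge of the class, 4 of the 87 sites between 10 and 11 kb were called, with a median of -0.16 points. Just outside it, 4 of the 98 promoter and downstream sites between 9 and 10 kb were called, with a median of -0.88 points.

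**Figure D1:**
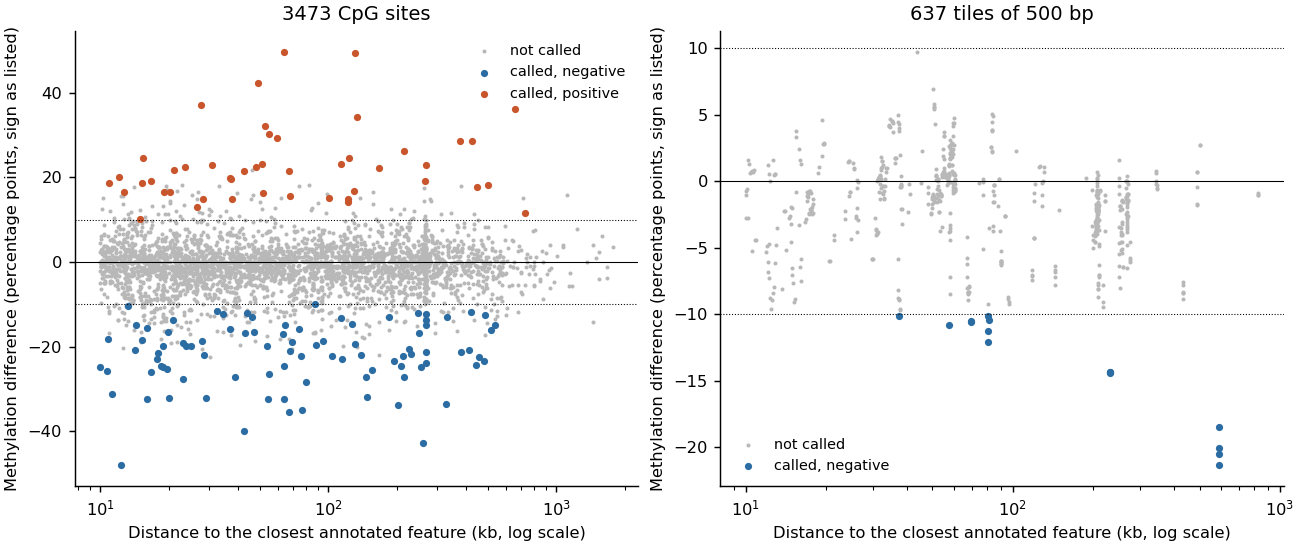
Each point is a distal site (left) or tile (right), placed by its distance to the closest annotated feature (kb, log axis) and its listed methylation difference (percentage points). Coloured points are called and dotted lines mark 10 points either way. Called negative sites lie from 10004 to 536712 bp and called positive ones from 10975 to 729255 bp. All 15 called tiles are negative.

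**Figure D2:**
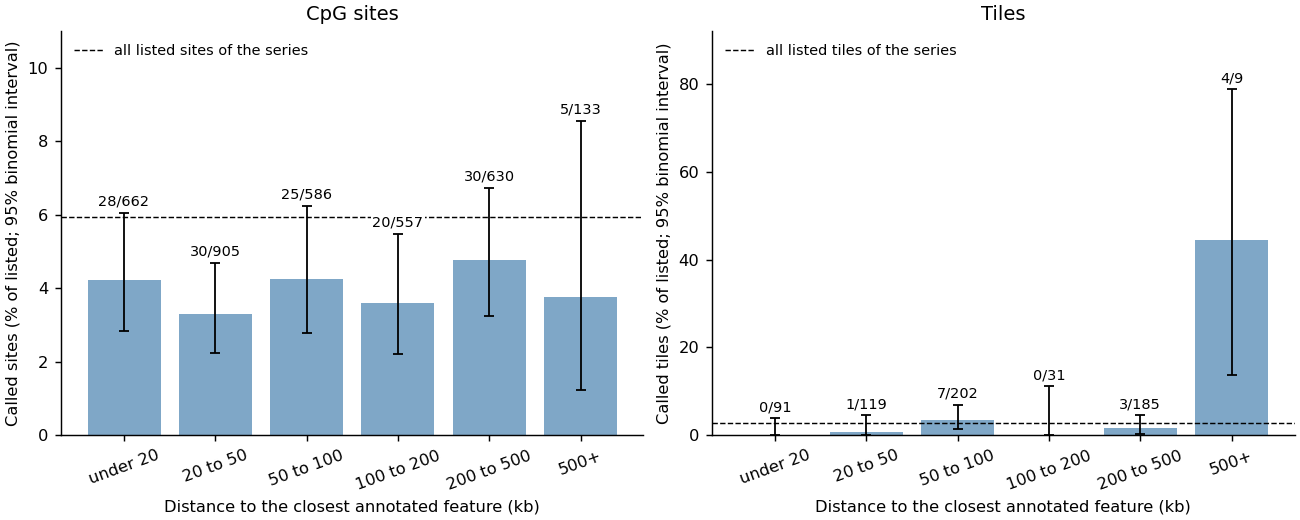
Bars give the percentage of listed distal sites (left) and tiles (right) that were called in each distance band, with exact 95% binomial intervals and the counts above them. The dashed line is the called share of all listed loci, 5.94% for sites and 2.78% for tiles. It includes the left-out blocks and loci off the autosomes. For all autosomal loci outside those blocks, members included, the share was 3.52% for sites and 1.45% for tiles. The tile bar at 500 kb or more is 4 overlapping tiles of 1 place out of 9 tiles.

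Where the closest gene of the lowest distal sites had a name, those genes had several roles. In the authors' deposited table the lowest of them, at -48.0 points (q = 7.2e-16), is on chromosome 15 at position 53540242. It lies 12377 bp from an exon of C2 domain containing 3 centriole elongation regulator (ENSBTAG00000054229), a protein that centrioles need to build cilia. The next, -42.7 points (q = 2.38e-05) per the authors' deposited table, is at position 47724548 of chromosome 16. Its closest feature, 260645 bp away, is a 3′ untranslated region of nephrocystin 4, a protein of the base of the cilium. A site at position 35478142 of chromosome 1 was listed at -40.0 points (q = 9.41e-07) by the authors' deposited table. That site is 42513 bp from a 5′ untranslated region of POU class 1 homeobox 1, the pituitary transcription factor behind growth hormone and prolactin.

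A called site near zinc finger protein 521, a nuclear factor of progenitor cells, had -34.9 points (q = 4.77e-07) per the authors' deposited table. It lies at position 31769747 of chromosome 24, 76818 bp from a record labelled intron. On chromosome 7, a site 15966 bp from the coding sequence of olfactory receptor 7A10 stood at -32.4 points (q = 0.00041, position 10039782) per the authors' deposited table. At another odorant receptor gene of that chromosome, olfactory receptor 7A17, a pair of sites lay 63877 and 63903 bp away (positions 9878191 and 9878217). Their values in the authors' deposited table were -24.5 points (q = 0.0172) and -32.4 points (q = 0.00041). The other members of the lowest 10, taken as 1 site per block, had a closest feature without a gene name. By the authors' deposited table these 4 sites lay at -35.4 points on chromosome 21 (ENSBTAG00000052854), -33.7 points on chromosome 8 (ENSBTAG00000052519), -33.5 points on chromosome 7 and -32.3 points on chromosome 1. The last 2 of these are closest to the transcripts ENSBTAT00000081727 and ENSBTAT00000077088, at 328990 and 54423 bp.

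Positive sites reached a size close to that of the negative ones. The highest distal site in the authors' deposited table, at 49.6 points (q = 6.8e-10), is on chromosome 6 at position 80021903. It is 63792 bp from a coding sequence of the unnamed gene ENSBTAG00000050977. A site at position 64820236 of chromosome 9 followed at 49.4 points (q = 8.17e-09) per the authors' deposited table. Its closest feature, at 130295 bp, is a 3′ untranslated region of T-box transcription factor 18, a regulator of heart and ureter development. The site at position 67171980 of chromosome 8, 49229 bp from ENSBTAG00000050508, had 42.3 points (q = 2.23e-11) per the authors' deposited table. Near phosphodiesterase 5A, the enzyme that breaks down cyclic GMP, the authors' deposited table lists 37.1 points (q = 5.42e-07) at position 5921746 of chromosome 6. That site is 27734 bp from the closest feature, again a record labelled intron. Of the 10 highest sites, taken as 1 per block, 8 had a closest feature with no gene name, as had 4 of the 10 lowest and 1892 of all 3473 distal sites (54.5%). These shares were not tested. The 6 of these 8 not given above ran from 28.6 to 36.2 points in the authors' deposited table, on chromosomes 6, 8, 9, 10, 13 and 20.

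**Figure D3:**
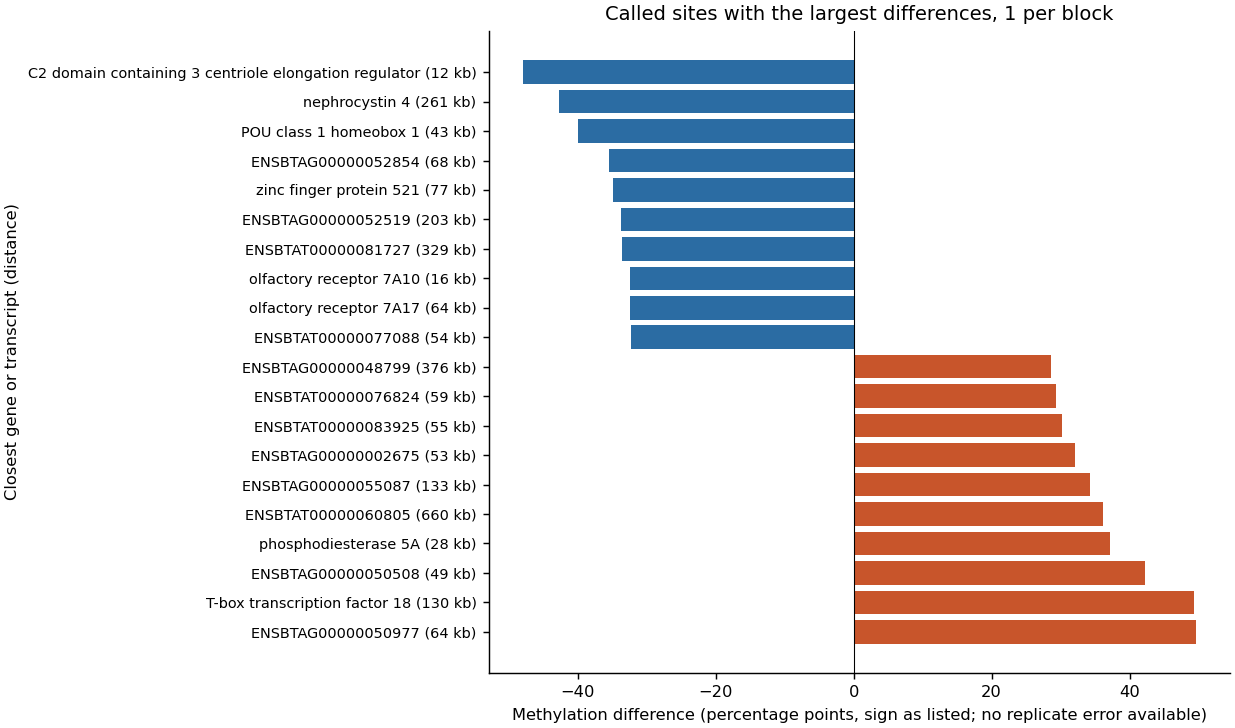
Bars show the listed methylation difference (percentage points) of the 10 lowest and 10 highest called distal sites, 1 per block, each named by its closest gene or transcript with the distance in kb. No replicate error can be given. The lowest run from -48.0 to -32.3 points and the highest from 28.6 to 49.6 points.

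The most remote calls were of both signs. The called site farthest from any listed feature was at position 3339280 of chromosome 5, with 11.5 points (q = 0.01) per the authors' deposited table. It is 729255 bp from an exon of ataxin 7 like 3B. A site 660379 bp from ENSBTAT00000060805 on chromosome 20 (position 44360267) had 36.2 points (q = 1.87e-05) per the authors' deposited table, the only site over 500 kb away that passed 20 points. The other 3 called sites beyond 500 kb were listed at -14.96 points (chromosome 22), -16.1 points (chromosome 9) and 18.3 points (chromosome 29) in the authors' deposited table.

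Calls among the distal sites were mostly isolated, but so were the listed distal sites themselves. Merged wherever neighbours were at most 100 kb apart, all 3473 listed distal sites made 1932 stretches, and 1309 of these held 1 site. Merged in the same way, the calls made 123 blocks. Of these blocks, 113 held 1 called site, 7 held 2 and 3 held 3 or more. Whether calls are more isolated than listed sites was not tested. By majority 78 blocks were negative and 42 positive, with 3 tied, and 5 of the 10 blocks with several calls held both signs. Every one of the 23 autosomes with distal sites had a call. The share ran from 2 of 152 sites on chromosome 15 (1.32%) to 7 of 93 on chromosome 21 (7.53%).

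The block with the most calls, 5 in 2677 bp, lies at positions 5407 to 8083 of chromosome 18, close to the start of the chromosome sequence and 264340 to 267016 bp from olfactory receptor 4P4-like. In the authors' deposited table its calls were -13.8 points at 5407, -21.3 at 5429, -12.2 at 5520 and -14.9 at 5656, and then 19.2 points at 8083. The 4 negative sites lie between 5407 and 5656, and the positive one stands apart from them. The 36 distal sites listed inside the block had a median of -0.82 points. The cytosine on the other strand of the CpG at 5520 had -0.93 points per the authors' deposited table. On chromosome 13, 3 negative calls fell between positions 11191045 and 11258806, with values from -19.7 to -13.7 points in the authors' deposited table. The 67 distal sites listed there had a median of -3.31 points. A block of 3 calls on chromosome 10 (positions 23561444 to 23743391), near T cell receptor alpha variable 24, held 2 negative and 1 positive call.

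Most closest genes had at most 1 call. The distal sites pointed to 1668 closest genes or transcripts, of which 123 had a called site, 112 of them exactly 1. Of the sites, 1581 were closest to a gene with a full name (60 called, 3.80%), 742 to a gene without one (32 called, 4.31%) and 1150 to a feature that names a transcript only (46 called, 4.0%). The features that name a transcript only were exons, with a median length of 123 bp, and 384 of the 557 were at most 200 bp long. By the strand of the closest feature, 58 of 1494 sites on its 5′ side (3.88%) and 80 of 1979 on its 3′ side (4.04%) were called.

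Grouped by the name of the closest gene, no group held many calls. For comparison, 3.97% of all distal sites and 5.94% of all listed sites were called. Most groups are small, and no group was tested against these shares. Chemosensory receptor genes (olfactory, taste and vomeronasal) were closest to 202 sites at 44 genes, with a median of -2.17 points. Of these sites 9 were called (4.46%), 8 negative and 1 positive, and 5 of the 9 are the block at the start of chromosome 18. The others are the 3 sites on chromosome 7 given above and a site 130401 bp from olfactory receptor 140 on chromosome 19, at -19.4 points (q = 0.00272) per the authors' deposited table. Zinc finger genes had 2 called of 26 sites (7.69%), both negative. Besides zinc finger protein 521, the call was at zinc finger and BTB domain containing 7C, with -14.8 points (q = 0.00286) per the authors' deposited table. Solute carriers had 1 called of 23 sites (4.35%), near solute carrier family 2 member 13, a myo-inositol transporter, with -26.4 points in the authors' deposited table. Neurotransmitter receptor and ion channel genes had 1 of 61 (1.64%), near calcium voltage-gated channel subunit alpha1 E, with 15.2 points in the authors' deposited table. Genes whose names hold words such as cadherin, contactin or adhesion molecule had 0 called of 64 sites, and ribosomal protein genes had 0 of 5. No site had a closest gene whose full name marks a small RNA. The 1150 sites closest to a feature that names a transcript only, and the 742 closest to a gene without a full name, could not be searched this way. Whether any of them is closest to a small RNA gene is therefore unknown.

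The following called distal sites were chosen after their values were seen, for the known role of the closest gene. Methyl-CpG binding domain protein 2, a reader of methylated DNA, was closest to a site 146576 bp away at -27.1 points (q = 0.00601, chromosome 24) per the authors' deposited table. Mannose binding lectin 2, a lectin that starts complement activation, was closest to a site at -31.1 points (q = 8.25e-05, 11269 bp) per the authors' deposited table. H2B.L histone variant 1, a variant of the core histone H2B, was closest to a site at 10.3 points (q = 0.042, 14927 bp) per the authors' deposited table, just past the threshold. Leucine rich repeat transmembrane neuronal 4, a membrane protein of synapses, was closest to 2 called sites at 23.1 and 17.7 points in the authors' deposited table. The deposited distances, 113360 and 450104 bp, are to reversed intron records, as described next.

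The label of the class was checked against the tables' own annotation. For 3468 of the 3473 distal sites the deposited distance equalled the gap to the deposited feature to within 1 bp. No member had a listed CpG island closer than its own feature by more than 1000 bp. However, 70 distal sites (2.02%, 5 of them called) lie inside the span of the features that the tables list for a gene, and 24 of these (3 called) overlap a feature listed elsewhere in the tables, in each case an intron. Of the sites, 212 had an intron as closest feature, and 207 of those records end before they start. The sites closest to an intron record were called at 7.08% (15 of 212), against 3.75% (62 of 1653) for exons, 3.89% (41 of 1053) for coding sequences, 3.86% (11 of 285) for 5′ and 3.33% (9 of 270) for 3′ untranslated regions. All 15 of these calls, including those at zinc finger protein 521, phosphodiesterase 5A, calcium voltage-gated channel subunit alpha1 E and leucine rich repeat transmembrane neuronal 4, rest on such reversed records. The distance of these sites, and with it their place in the class, is therefore uncertain. No tile lay inside a listed gene span. Measured from their nearer edge, 3 tiles (0 called) lie less than 10 kb from their feature, the closest at 9740 bp.

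The 637 distal tiles carried fewer calls than the sites and only negative ones. In total 15 were called, which is 2.35% (1.32% to 3.85%), 15 negative and 0 positive. The lack of positive calls holds only outside the left-out blocks. With those blocks kept in, 34 distal tiles were called, 24 of them negative (70.6%). Of all listed tiles, 2.63% were called with a negative and 0.151% with a positive sign. The other autosomal tiles outside the left-out blocks were called at 1.32% (55 of 4182), 54 of them negative. With a gene feature as the closest, the share was 1.22% of 411 promoter tiles, 0.763% of 917 tiles within genes and 1.74% of 402 downstream tiles. Distal tiles whose closest feature was a CpG island stood at 3.75% of 854. None of these differences was tested. A q below 0.05 alone was reached by 501 distal tiles (78.6%), so most of these fell short of 10 points.

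The differences of the distal tiles were small and mostly negative. The median was -1.35 points, with quartiles of -3.74 and 0.35 points and a range from -21.3 to 9.70 points, and 446 were negative and 191 positive. Those other autosomal tiles had a median of -0.47 points. Because tiles overlap, the 637 distal tiles cover 110 separate regions, and 59 of them share their values with another tile.

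The 15 called tiles lie in 6 places, each on another chromosome, all negative. The lowest place is at positions 11333201 to 11334000 of chromosome 16, where 4 overlapping tiles were listed at -20.5, -21.3, -20.1 and -18.5 points in the authors' deposited table. The q of the lowest of them is 3.39e-69, and its closest feature, an exon of the transcript ENSBTAT00000016962, is 590284 bp away. On chromosome 1, 3 tiles at positions 61956201 to 61956900 had between -14.4 and -14.3 points in the authors' deposited table. They lie 230645 to 230845 bp from ENSBTAT00000066754. At positions 15824001 to 15824800 of chromosome 5, the authors' deposited table lists 4 tiles at -10.1, -12.1, -11.3 and -10.4 points. These tiles are 80833 to 81133 bp from a 5′ untranslated region of MGAT4 family member C, a glycosyltransferase of N-glycan branching.

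The other 3 places were close to the 10 point minimum. A tile at position 20762601 of chromosome 6 had -10.8 points (q = 2.65e-28) per the authors' deposited table, 57808 bp from CXXC finger protein 4, an inhibitor of WNT signalling. On chromosome 9 a pair of tiles at positions 19454801 to 19455400, closest to ENSBTAT00000060323, had -10.5 and -10.6 points in the authors' deposited table. They are the lowest of 15 tiles of that stretch, which were all negative with a median of -8.30 points. A called site closest to the same transcript, at position 19497902, has the other sign, with 12.99 points (q = 0.00643) per the authors' deposited table. The tile at position 15068901 of chromosome 20, 37558 bp from ring finger protein 180, a ubiquitin ligase, had -10.1 points (q = 2.58e-55) per the authors' deposited table. The 8 tiles of that stretch were all negative, with a median of -8.91 points.

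By distance, called tiles lay between 37558 and 590384 bp, and none of the 91 tiles under 20 kb was called, which allows a share of up to 3.97% by the exact interval. From 20 to 50 kb, 1 of 119 was called (0.84%), and from 50 to 100 kb 7 of 202 (3.47%). From 100 to 200 kb the count was 0 of 31, and from 200 to 500 kb it was 3 of 185 (1.62%). At 500 kb or more, 4 of 9 tiles were called (44.4%), and these 4 are the overlapping tiles of chromosome 16. Nearer than 50 kb, 1 of 210 tiles was called (0.48%), against 14 of 427 at 50 kb or more (3.28%). The difference was -2.80 percentage points with a 95% Newcombe interval of -4.99 to -0.26. These counts rest on 1 place nearer and 5 places farther than 50 kb, and the interval treats overlapping tiles as independent. Without chromosome 5 the difference was -1.93 and without chromosome 16 it was -1.98. The interval spanned 0 when chromosome 1, 3, 5, 9 or 16 was left out. Among tiles that do not overlap, the difference was -3.48 with an interval of -8.60 to 2.42, and with a split at 100 kb it was -1.17 with an interval of -4.48 to 1.27, so that both span 0. Across the 637 overlapping tiles, Spearman's rho of distance was 0.10 with the absolute and -0.23 with the signed difference. Tiles just inside the 10 kb edge had 0 called of 15, and tiles just outside it 0 of 20.

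A few long stretches held much of the tile list. Merged by the same 100 kb limit, the distal tiles made 82 stretches, and the 3 with the most tiles held 292 of the 637 (45.8%). The largest, at positions 324801 to 372500 of chromosome 13, listed 189 tiles (29.7%), of which 71 were negative and 118 positive, with a median of 0.44 points and 0 called. The next, at positions 3301 to 52100 of chromosome 18, listed 57 tiles, 53 of them negative, with a median of -2.53 points. In the stretch at positions 33301 to 39700 of chromosome 15, all 46 tiles were negative, with a median of -2.32 points, and the closest gene is olfactory receptor, family 5, subfamily M, member 9. The 40 tiles near taste 2 receptor member 1, a bitter taste receptor on chromosome 20, included 36 negative ones, with a median of -2.49 points. Tiles closest to chemosensory receptors were 151 in all, with a median of -2.46 points and 0 called.

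Weighting each stretch equally, the negative sign was still the more common. Of the 82 stretch medians, 61 were negative and 21 positive, and their median was -1.73 points. Of the 26 stretches with at least 5 tiles, 20 had a negative median. The highest median of these, 3.18 points, was in 12 tiles at positions 1101 to 3100 of chromosome 24. Of the distal tiles 332 lie in the first 1 Mb of their chromosome and none of those was called, against 15 of the 305 farther in (4.92%). The tiles in the first 1 Mb form 13 stretches, with 189 tiles in the chromosome 13 stretch alone, and those farther in form 69 stretches, so these overlapping tiles are not independent counts. For sites the counts called were 8 of 219 in the first 1 Mb (3.65%) and 130 of 3254 farther in (3.995%).

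**Figure D4:**
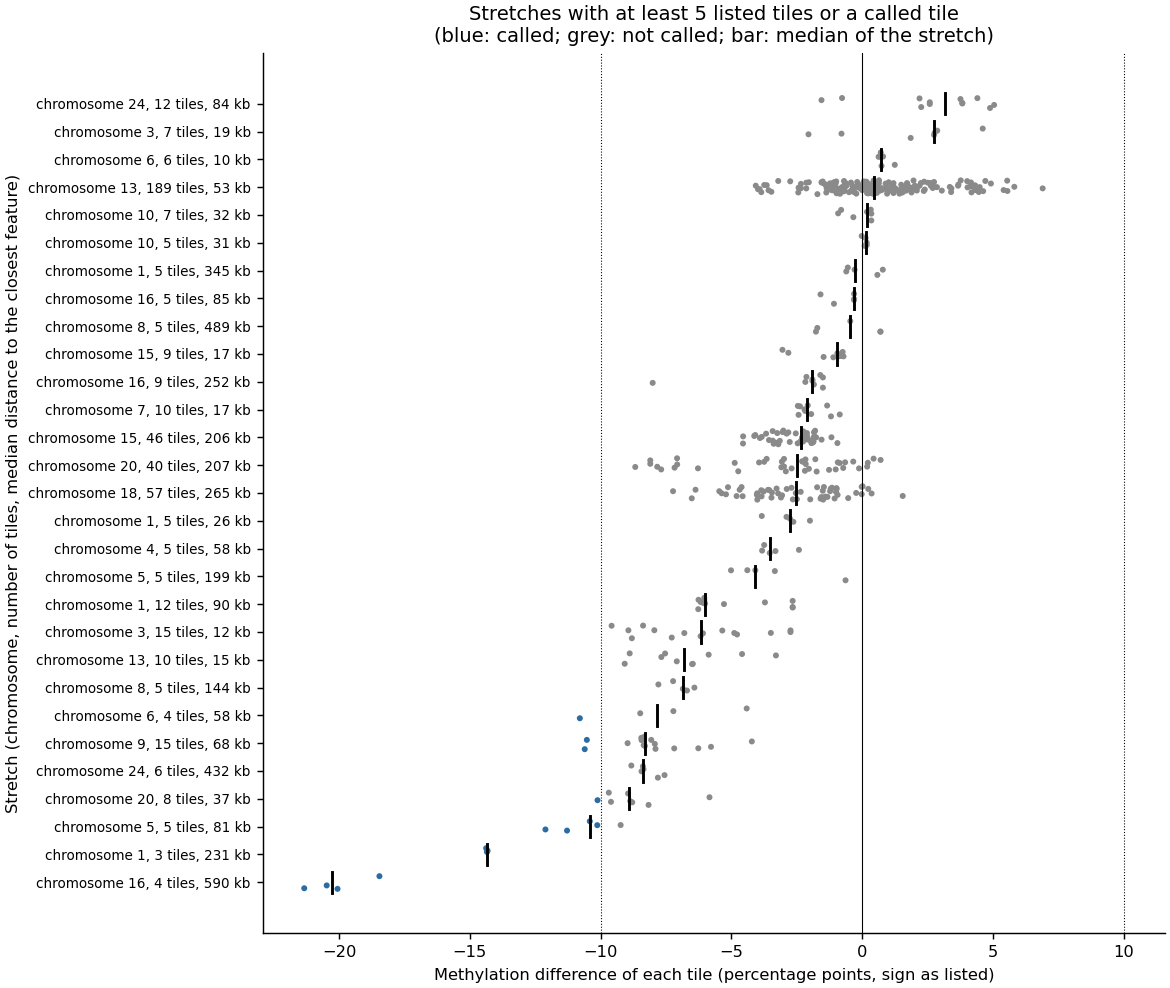
Each row is a stretch of distal tiles with at least 5 tiles or a called tile, ordered by its median (black bar), and each point is the listed methylation difference of a tile (percentage points). Blue points are called and dotted lines mark 10 points either way. The chromosome 13 stretch of 189 tiles lies around 0, and the called tiles are all at the negative end.

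Sites and tiles overlapped little in their calls, and most calls lay where the other kind of locus was not listed. Of the 15 called tiles, 4 held a listed site. Of all 637 distal tiles, 144 held at least 1 listed site of any class. Where the tile and the mean of its sites both had a sign, 110 of 140 had the same one (78.6%), with a Spearman rho of 0.50 across overlapping tiles that share these sites. Of the 138 called sites, 7 lay in a listed tile, 6 of them with the sign of the tile. The share of all 3473 distal sites that lie in a listed tile is not given here. Whether called sites differ from it was not tested. Only 1 lay in a called tile, the site at position 61956677 of chromosome 1, at -21.8 points (q = 0.0237) per the authors' deposited table, inside the tiles at -14.4 to -14.3 points. The 4 negative calls at the start of chromosome 18 lie in overlapping tiles, of which the lowest, at positions 5401 to 5900, was listed at -6.51 points (q = 1.24e-09) per the authors' deposited table, short of the 10 point minimum. Of the tiles that hold the positive call at 8083, the one farthest from 0 had -2.49 points in the authors' deposited table. In the called tile near ring finger protein 180, the 2 listed sites stood at -5.89 and -3.74 points, both with q of at least 0.436 in the authors' deposited table.

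Within 500 bp, 30 of the 138 called sites had another listed site of any class. The mean of these neighbours had the sign of the call for 25 of the 30, made up of 20 of 22 negative calls and 5 of 8 positive ones. Of the negative calls, 6 had another called site as a neighbour, namely the 4 at the start of chromosome 18 and the pair near olfactory receptor 7A17, so these count for each other. Over the distal sites with such a neighbour, and a sign in both, the sign equalled that of the neighbours' mean for 611 of 993 (61.5%), and the difference between negative and positive calls was not tested. Both strands of a CpG were listed for 44 distal CpGs. Their signs were equal for 24 of 43 (55.8%), the Spearman rho was 0.19, and in none were both strands called.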

How the data were processed

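The data are 2 result tables in which the authors compared both groups, 1 of CpG sites and 1 of tiles. The p-values and q-values were computed by the authors and deposited with a signed methylation difference, the closest annotated feature and the distance to it. Per the submitters' processing notes the tools were Trimmomatic, Bismark and methylKit and the build was ARS-UCD1.2, and neither versions nor settings are given in the sources used here. All positions are on that build. The authors combined the samples, so no sample could be left out and no coverage minimum changed, and filters on coverage or strand that they used could change which loci are listed. The values at hand cover 23 autosomes for sites and 26 for tiles. Sites on chromosomes 2, 3, 4, 12, 23 and 27 and tiles on chromosomes 12, 23 and 27 were not at hand and were not analysed here.

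Members were taken by class of position, type of closest feature and chromosome, and sites and tiles were treated separately. The groups were not tested anew. Shares have exact (Clopper-Pearson) 95% intervals, and differences of shares Newcombe intervals. Called loci at most 100 kb from the next were merged into blocks. The loci named are the 10 lowest and 10 highest called sites and tiles (1 per block), blocks with at least 5 calls, the 5 called sites and 5 called tiles farthest from a feature, and tile blocks that overlap a site block. Loci named for another reason are given with that reason. Members, lists and rules were chosen with earlier results of these data known. Gene names are those of the deposited annotation. NCBI numbers were found in the gene table of a later assembly (ARS-UCD2.0) for 197 of 199 genes of the site table and 11 of 11 of the tile table. The steps were tested on simulated tables. Python 3.11.15, pandas 2.3.3, NumPy 2.4.6, SciPy 1.17.1 and matplotlib 3.10.9 were used.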

Additional observations from a re-analysis of the deposited data

How the results depend on the processing

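Of 57 alternative values that leave out no chromosome, 45 stayed within 1.5 times the count or within the 95% interval of the value reported, and 12 moved further. Some had little room to move. Every called tile was negative, so a stricter cutoff, a subset of tiles or 1 vote per block could only return a negative share of 100%. Taking 1 value per CpG kept the strand with the lower q, and no CpG was called on both strands. A difference counted as staying even where its own interval spanned 0 and the reported one did not. Called sites numbered 66 at q below 0.01 and 75 at 20 points or more. Called tiles numbered 124 at 5 points or more, 3 at 20 points or more, 34 with the left-out blocks kept in (70.6% of them negative) and 4 among tiles that do not overlap. The nearer minus farther difference of tiles was -7.16 percentage points with loci grouped over 1 kb (interval -18.1 to 3.77). Its interval also spanned 0 at 5 points or more (-4.18), at 20 points or more (-0.70), with the left-out blocks kept in (-0.60) and with a split at 20 kb (-2.75) or 100 kb (-1.17), and among tiles that do not overlap (-3.48). With q below 0.05 only, the median difference was -10 points for sites and -2.16 for tiles. The tile median was -1.73 with 1 value per stretch and -2.34 without the stretch with the most tiles, both chosen after seeing the data. A stricter cutoff or a subset can only lower a count, and a looser cutoff or added blocks can only raise it. The stretch with the most tiles had a median of 0.44 points, above the -1.35 of all distal tiles, so leaving it out lowers the tile median. The cause of the other shifts was not tested. The nearer minus farther difference of sites turned positive with a split at 20 kb (0.32) and with loci grouped over 1 kb (0.23), each with an interval that spans 0.

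Leaving out 1 chromosome at a time, the site median lay between -0.91 and -0.76, the tile median between -2.27 (without chromosome 13) and -1.06, the nearer minus farther difference between -0.77 and -0.11 for sites and between -3.96 and -1.93 for tiles, and the negative share between 63.6% and 67.5% for sites and at 100% for tiles. The 100% for tiles was fixed beforehand, because every called tile was negative. The alternatives added after seeing the data also left out sites inside a listed gene span (133 called) and sites closest to an intron record (123 called). No paired analysis was possible because the authors' values combine the samples of each group. The depth is unknown, so the precision of a single value cannot be given.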
